A study of Mus musculus with 12 samples.

Results

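The genes described here are 35 genes of the cellular response to low oxygen and of glycolysis, taken as a list of gene names and not by a cut on their values in these libraries. Each gene was read out as a locus, the summed ATAC-seq counts of all deposited regions that overlap its span in mm10 or the 5000 bp on either side. All 35 had a region and passed the filter on low counts, among 16304 protein-coding genes with a region, of which 15544 were tested. Together the 35 loci hold 243 of the 117835 regions, and 202 of those were deep enough to be tested singly.

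Cells sense oxygen through the prolyl hydroxylases, among them the products of Egln1 and Egln3, which mark the HIF alpha subunits (Hif1a, Epas1) for destruction while oxygen is present. When oxygen falls, the alpha subunits persist, pair with ARNT and bind short sites with the core letters ACGTG or GCGTG near genes of glucose uptake, glycolysis, lactate export, vessel growth and mitochondrial turnover. Macrophages use the same programme when they are activated by inflammatory signals, and glioblastomas hold poorly perfused areas in which macrophages collect. ATAC-seq measures where the transposase Tn5 can reach DNA, so the values below are the accessibility of these loci and not the levels of their transcripts.

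Nuclei for the libraries came from mouse brain tumours, after the cells had been sorted by flow cytometry. All carry the genotype label Ink4a/ArfKO, PDGFB, in which PDGFB is expressed in Nestin-positive progenitors. The 4 groups, of 3 libraries each, are MDM (monocyte-derived macrophages), MG (microglia), and the lipid-laden cells of each lineage, LL-MDM and LL-MG. The sources used here do not give the markers used for the sort or the ages of the mice, and no tumour-free group was analysed here. Neither lineage therefore has a normoxic or tumour-free control. The groups follow each sample's description, which matches a column name of the count table. The titles name the same group for only 4 of the 12 samples and another group for 8. The titles number 3 mice, and with this conflict no library could be tied to a mouse. Every p-value therefore measures only the spread between these libraries. With groups taken from the titles, 1 locus call (Adm, LL-MDM against MDM) was made among the 35 genes over the comparisons below. The counts given here therefore rest on the column names.

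Region totals ran from 1162969 counts in LL-MDM 1 to 18938222 in MDM 2, and 1 CPM (a count scaled to library size) stands for 1.17 to 18.7 counts. The 35 loci took 0.354% to 0.376% of all region counts in MDM and 0.390% to 0.410% in MG. The share was 0.392% to 0.407% in LL-MDM and 0.393% to 0.395% in LL-MG. The microglia markers Sall1, Tmem119, P2ry12 and Fcrls summed to 81.8 to 90.8 CPM in MDM and 140.1 to 251 in MG. Their sum was 139 to 141 for the LL-MDM group and 229 to 270 for LL-MG. The monocyte-lineage markers Itga4, Ccr2 and Ms4a7 summed to 181 to 210 CPM in MDM and 67.5 to 109 in MG. This sum was 133 to 144 in LL-MDM and 68.4 to 83.7 in LL-MG. Sall1 alone held 0.868, 1.07 and 0.488 CPM in MDM and 74.2, 39.8 and 52.8 in MG, with 11.9, 9.79 and 6.19 in LL-MDM and 66.0, 88.0 and 67.3 in LL-MG. Not every marker followed the lineages: mean Ccr2 was 24.8 CPM in MDM and 27.2 in MG, and Tmem119 was highest in LL-MDM (73.6). The MG libraries 1 to 3 differed at Ccr2, with 10.2, 42.8 and 28.5 CPM. The 4 dendritic cell markers summed to 561 to 634 CPM in MDM, 364 to 404 in MG, 383 to 413 in LL-MDM and 404 to 444 in LL-MG. Of these, Ccr7 (mean 82.1 CPM in MDM, at most 34.9 in any library of the other groups) and Flt3 were highest in MDM. Mean Xcr1 was instead highest in LL-MG (59.8 CPM, against 44.3 in MDM). Mean Zbtb46 was 280 CPM in MDM, 268 in MG, 222 in LL-MDM and 273 in LL-MG. Kit, of the basophil and mast cell list, was highest in MDM too (mean 97.0 CPM). Cd200r3, Cpa3, Gata2, Hdc and Ms4a2 of that list had higher means in MG than in MDM. The part of such cells in the differences from MDM was not tested. In sorted but bulk libraries, fewer cells of a type and less accessibility per cell cannot be told apart. The libraries MG 2 and MG 3 stood apart from MG 1 at several of the loci and at basophil and mast cell markers. Calls between LL-MG and MG are given with and without them.

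The promoters of the members whose start became more or less accessible show the DNA that the accessibility values refer to. RefSeq (GRCm38.p6, the assembly of mm10) gave promoter windows, 250 bases before to 50 after a start, for 32 of the 35 members. None was printed for Epas1, Bnip3l and Ndrg1. Shown are the 9 members that passed a locus test and also had a called region at the start covering at least 50 bases of the window, each on its own strand and 5′ to 3′. Capitals mark the letters ACGTG or GCGTG, or the same letters read on the other strand (CACGT or CACGC). Overlapping matches run together, so that CACGTG counts as 2. The windows are chr7:110627407-110627706 (plus strand) for Adm, chr3:104638414-104638713 (plus) for Slc16a1, chr2:11553880-11554179 (minus) for Pfkfb3 and chr4:150236947-150237246 (plus) for Eno1. The others are chr7:126799129-126799428 (minus) for Aldoa, chr10:59323046-59323345 (plus) for P4ha1, chrX:106186850-106187149 (plus) for Pgk1, chr7:34230287-34230586 (minus) for Gpi1 and chr12:54203825-54204124 (minus) for Egln3.
Adm: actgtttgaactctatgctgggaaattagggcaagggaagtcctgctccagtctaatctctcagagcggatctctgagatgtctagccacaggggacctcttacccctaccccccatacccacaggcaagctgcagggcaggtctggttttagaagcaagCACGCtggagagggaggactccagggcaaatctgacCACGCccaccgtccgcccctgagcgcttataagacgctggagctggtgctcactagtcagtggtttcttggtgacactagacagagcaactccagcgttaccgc
Slc16a1: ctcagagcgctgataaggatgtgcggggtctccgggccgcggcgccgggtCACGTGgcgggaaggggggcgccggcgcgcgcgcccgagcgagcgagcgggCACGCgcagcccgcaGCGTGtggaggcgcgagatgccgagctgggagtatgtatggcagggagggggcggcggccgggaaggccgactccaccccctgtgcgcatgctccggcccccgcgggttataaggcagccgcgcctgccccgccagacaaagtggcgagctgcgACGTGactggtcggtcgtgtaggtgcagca
Pfkfb3: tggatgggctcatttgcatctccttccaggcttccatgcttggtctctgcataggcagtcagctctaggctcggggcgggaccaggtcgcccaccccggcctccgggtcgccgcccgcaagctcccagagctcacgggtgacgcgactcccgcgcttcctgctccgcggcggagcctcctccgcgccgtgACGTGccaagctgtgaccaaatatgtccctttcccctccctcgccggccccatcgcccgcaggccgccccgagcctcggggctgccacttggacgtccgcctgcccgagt
Eno1: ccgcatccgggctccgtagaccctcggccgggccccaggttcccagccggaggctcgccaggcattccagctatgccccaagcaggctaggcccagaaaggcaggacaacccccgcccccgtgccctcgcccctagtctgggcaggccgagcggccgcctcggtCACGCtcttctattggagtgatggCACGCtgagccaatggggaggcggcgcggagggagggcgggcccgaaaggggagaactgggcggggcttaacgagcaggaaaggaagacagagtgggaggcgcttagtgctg
Aldoa: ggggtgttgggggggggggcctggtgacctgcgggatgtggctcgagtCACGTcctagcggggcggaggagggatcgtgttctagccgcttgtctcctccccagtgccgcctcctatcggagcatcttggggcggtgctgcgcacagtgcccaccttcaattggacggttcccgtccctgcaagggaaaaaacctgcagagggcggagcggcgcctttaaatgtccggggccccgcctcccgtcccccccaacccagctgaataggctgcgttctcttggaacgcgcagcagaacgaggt
P4ha1: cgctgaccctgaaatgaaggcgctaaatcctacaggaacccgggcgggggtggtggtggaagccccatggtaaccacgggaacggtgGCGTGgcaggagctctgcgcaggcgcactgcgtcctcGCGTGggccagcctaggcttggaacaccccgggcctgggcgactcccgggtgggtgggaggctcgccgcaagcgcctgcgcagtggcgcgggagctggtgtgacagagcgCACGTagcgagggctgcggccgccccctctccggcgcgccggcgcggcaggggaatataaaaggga
Pgk1: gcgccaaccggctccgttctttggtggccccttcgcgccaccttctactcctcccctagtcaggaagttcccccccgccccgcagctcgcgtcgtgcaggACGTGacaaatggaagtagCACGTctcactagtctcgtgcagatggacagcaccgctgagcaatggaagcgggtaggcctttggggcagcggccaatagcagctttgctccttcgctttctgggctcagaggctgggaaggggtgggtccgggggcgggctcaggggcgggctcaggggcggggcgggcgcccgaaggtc
Gpi1: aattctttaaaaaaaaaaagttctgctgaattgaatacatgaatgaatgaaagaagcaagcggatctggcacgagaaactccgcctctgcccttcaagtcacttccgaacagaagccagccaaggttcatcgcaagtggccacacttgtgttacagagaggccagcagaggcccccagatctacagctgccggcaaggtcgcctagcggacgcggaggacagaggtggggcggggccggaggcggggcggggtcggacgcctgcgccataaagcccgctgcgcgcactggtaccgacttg
Egln3: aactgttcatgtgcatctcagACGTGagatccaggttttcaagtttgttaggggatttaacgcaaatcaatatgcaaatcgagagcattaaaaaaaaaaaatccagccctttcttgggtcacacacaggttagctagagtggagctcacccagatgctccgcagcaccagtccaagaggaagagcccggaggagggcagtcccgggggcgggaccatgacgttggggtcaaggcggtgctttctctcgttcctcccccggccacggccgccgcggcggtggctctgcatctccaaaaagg
Slc16a1 held the most matches of these 9, 5, of which a pair lies in a single CACGTG. P4ha1 held 3, Adm, Eno1 and Pgk1 held 2 each, Pfkfb3, Aldoa and Egln3 1 each, and these letters are not in the Gpi1 window. Of the 32 members with a window, 30 (93.8%) held ACGTG or GCGTG in at least 1 window on either strand, against 52.9% of all 17274 genes in the table. Among genes whose window overlaps a deposited region, the shares were 28 of 31 members (90.3%) and 67.8% of all genes. ACGTG alone was in the windows of 71.9% of the members and 23.5% of all genes. Several of these genes are textbook HIF targets and were listed for that reason, so the excess describes the list and is no result of these libraries. A match is not a bound site.

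The plot of locus accessibility by library gives an overview of the 35 genes. The highest group mean was 1.07 to 3.05 times the lowest, with a median of 1.24. The 3.05 belongs to Pfkp. MDM had the lowest mean for 15 of the 35 genes and LL-MG for 11. The highest mean was spread over all groups (MDM 9 genes, MG 9, LL-MDM 8 and LL-MG 9). The genes did not all rise or fall together in any group.

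**Figure D1:**
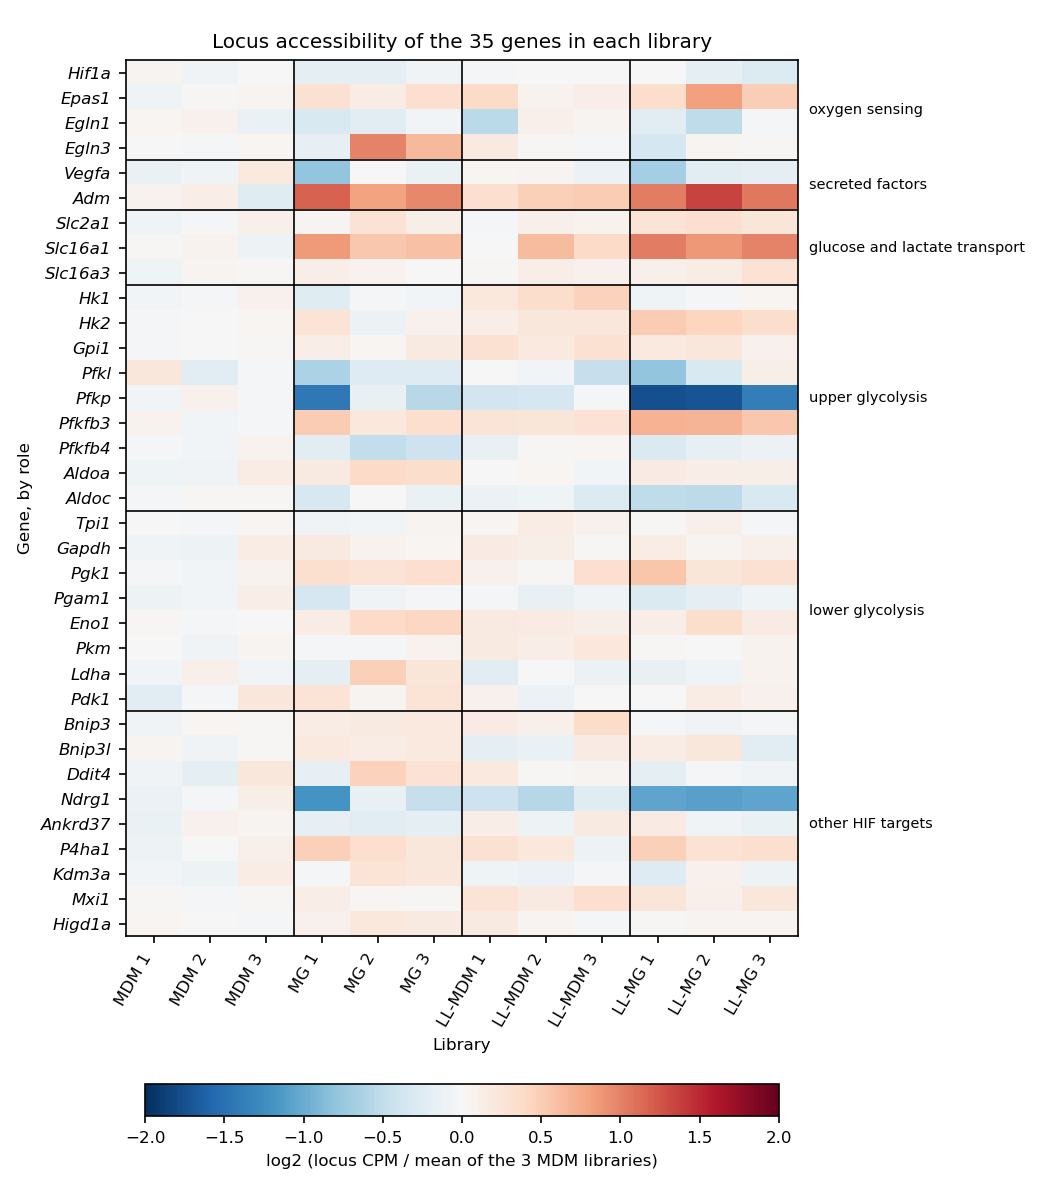
Each row is a gene, ordered by role, each column a library, and the colour gives log2 of the locus CPM over the mean of the 3 MDM libraries. Adm and Slc16a1 are higher in all MG and LL-MG libraries than in MDM. Pfkp is lowest in LL-MG 1, LL-MG 2 and MG 1 (28.4, 28.9 and 35.3 CPM), with LL-MG 3 at 36.7. Egln3 is highest in MG 2 and MG 3 (109 and 85.0 CPM).

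Between the lineages without lipid load, 8 of the 35 loci were more accessible in MG than in MDM and 2 were less accessible. The test was edgeR's quasi-likelihood test with a Benjamini-Hochberg adjusted p under 0.05 over all 15544 genes. Higher in MG were Adm, Slc16a1, Pfkfb3, Eno1, Aldoa, P4ha1, Pgk1 and Egln3, and lower were Pfkfb4 and Ndrg1. Of all genes tested, 41% passed, 20.4% as higher and 20.6% as lower. The members' share, 28.6%, was below that of all genes. The median log2 difference was 0.11 over the members and 0.0054 over all genes. The size of the split depended on the scaling: with total counts as library sizes it was 17 higher and 1 lower. With scaling factors taken from regions within 1 kb of a start it was 8 higher and 5 lower. The median over all genes moved with these scalings too, to 0.075 and -0.087. Shares of all genes or regions called under other scalings are not given, here or below. Counts that change with the scaling therefore need not be particular to the members. The libraries of the pair of groups did not overlap for 12 members that were higher and 6 that were lower, 51.4% of the members. Over all genes the shares were 22.7% and 24.1%, 46.8% in sum.

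Between the lipid-laden lineages, 4 loci were more accessible in LL-MG than in LL-MDM (Adm, Slc16a1, Pfkfb3 and Epas1) and 2 were less (Hk1 and Pfkp). These are 17.1% of the members against 20.5% of all genes (12.1% higher, 8.43% lower). With start-based scaling the split was 4 and 4, Bnip3 and Ndrg1 being added to the lower side. The libraries did not overlap for 6 members that were higher and 8 that were lower, 40% of the members. Over all genes the shares were 22.1% and 19.7%, 41.8% in sum. Adm, Slc16a1 and Pfkfb3 passed in both lineage comparisons, which share no library. That is 8.57% of the members, against 8.25% of all genes that were higher in both.

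With lipid load, 6 loci were more accessible in LL-MDM than in MDM (Hk1, Slc16a1, Mxi1, Gpi1, Pfkfb3 and Adm). These are 17.1% of the members against 23.9% of all genes (11.7% higher, 12.2% lower). No member passed as lower in edgeR (0), 1 did so at an unadjusted p under 0.05, and DESeq2 called 0. The libraries did not overlap for 11 members that were higher and 2 that were lower, 37.1% of the members. Over all genes the shares were 20.3% and 23.1%, 43.4% in sum. In the microglial lineage, Hk2 and Pfkfb3 were more accessible in LL-MG than in MG and Pfkp was less. These are 8.57% of the members against 18.5% of all genes (9.82% higher, 8.63% lower). With total counts as library sizes that split was 2 and 4, and with loess offsets 1 and 3. The libraries did not overlap for 5 members that were higher and 3 that were lower, 22.9% of the members. For all genes the shares were 17% and 13.1%, 30.2% in sum. MDM enters the first lineage comparison and the lipid comparison of its lineage, and the same holds for MG, LL-MDM and LL-MG. Calls that share a group are not independent of each other.

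**Figure D2:**
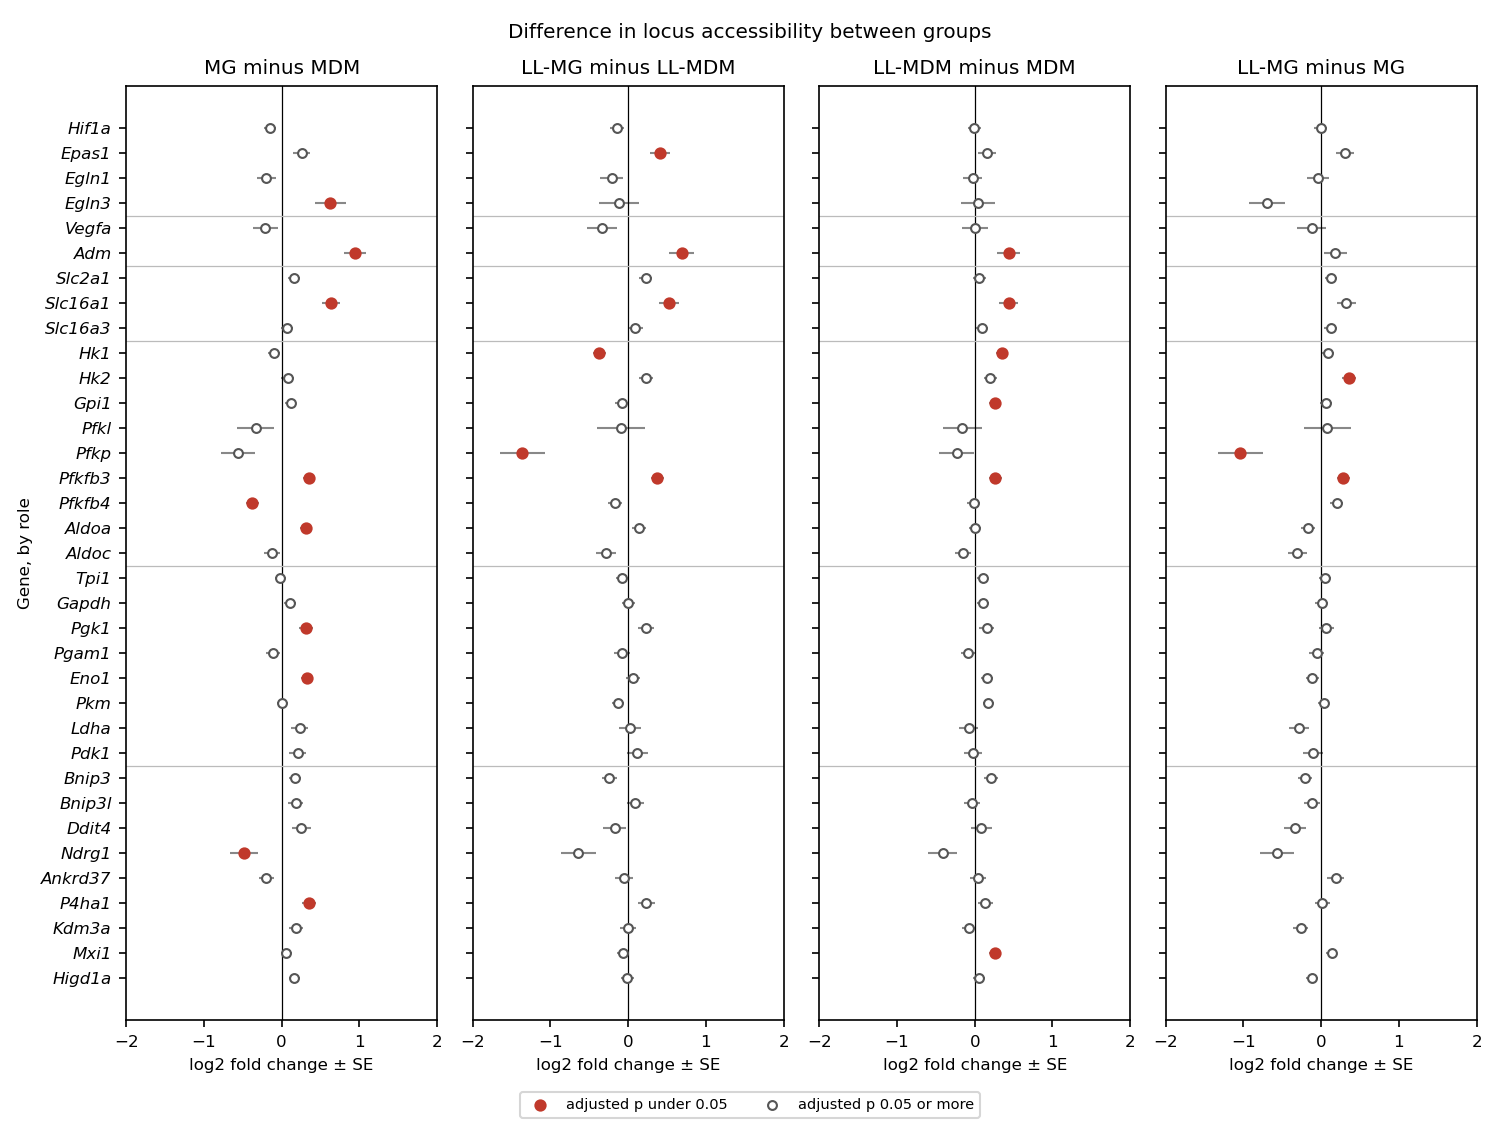
Points give the log2 fold change of each locus with its standard error in the 4 comparisons, filled in red where the edgeR adjusted p is under 0.05. Most members lie near 0, Adm is the highest in both lineage comparisons, and Pfkp is the lowest, at -1.36 between the lipid-laden lineages.

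Among the HIF alpha subunits and the hydroxylases that act on them, 2 of the 4 loci passed a test in 1 comparison each. Epas1 (HIF-2 alpha; chr17:86753864-86833410) held 36.6, 39.4 and 40.3 CPM in MDM and 47.7, 43.2 and 48.8 in MG. LL-MDM held 50.3, 40.7 and 42.7, and LL-MG 49.6, 68.1 and 54.3. Values are given for libraries 1 to 3 of each group throughout. Its LL-MG values are the highest of the 4 groups on average, but LL-MG 1 lies just below LL-MDM 1, so these groups overlap. The difference between LL-MG and LL-MDM was 0.41 ± 0.13 (adjusted p = 0.025) on the log2 scale, with its standard error, and the call was lost without LL-MDM 2, LL-MDM 3 or LL-MG 2 (adjusted p = 0.079 to 0.18). Hif1a, the subunit that most directly drives glycolytic genes, held 114, 104 and 109.9 CPM in MDM and 96.4, 96.6 and 104 in MG. LL-MDM held 107, 109.9 and 110.1, and LL-MG 109, 96.1 and 91.0. All 12 values lie within a narrow band, and the MG libraries are all below the MDM libraries without passing the test (-0.14 ± 0.077, adjusted p = 0.14).

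Egln3, a hydroxylase that is itself induced by HIF (chr12:54178981-54203874), held 54.1, 53.4 and 55.8 CPM in MDM and 48.7, 109 and 85.0 in MG. LL-MDM held 61.4, 55.5 and 53.4, and LL-MG 42.5, 56.3 and 55.4. MG 2 and MG 3 were far above every other library, while MG 1 was below all 3 MDM libraries, so the groups overlap. MG differed from MDM by 0.62 ± 0.20 (adjusted p = 0.027), a call that was lost without MDM 1, MDM 2 or MG 3 (adjusted p = 0.063 to 0.08). Without MG 2 and MG 3 the difference turned to -0.13 (adjusted p = 0.54). Egln1, the main oxygen sensor among the hydroxylases, passed no locus test, with values from 33.2 CPM in LL-MDM 1 to 52.0 in LL-MDM 2.

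Of the secreted factors, Adm, which encodes the vasodilator peptide adrenomedullin (chr7:110627657-110629820), had the largest rise among the 35 loci in both lineage comparisons. It held 19.3, 20.2 and 15.4 CPM in MDM and 41.3, 31.9 and 35.8 in MG. LL-MDM held 23.0, 25.4 and 26.1, and LL-MG 37.2, 46.8 and 38.1. Every MG library was above every MDM library, every LL-MG library above every LL-MDM library, and every LL-MDM library above every MDM library. The log2 differences were 0.94 ± 0.14 (adjusted p = 8.4e-06) for MG against MDM, 0.69 ± 0.16 (adjusted p = 0.0034) for LL-MG against LL-MDM, and 0.44 ± 0.15 (adjusted p = 0.035) for LL-MDM against MDM. LL-MG did not pass against MG (0.18 ± 0.15, adjusted p = 0.39), and their libraries overlapped. The lipid call in the monocyte lineage was lost without MDM 1, MDM 3, LL-MDM 2 or LL-MDM 3 (adjusted p = 0.066 to 0.15).

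Vegfa, the main growth factor for blood vessels (chr17:46016993-46032377), passed no test at the locus with all libraries. It held 71.6, 73.9 and 89.4 CPM in MDM and 45.2, 79.0 and 71.5 in MG. LL-MDM held 80.1, 80.9 and 72.0, and LL-MG 48.7, 66.7 and 68.7. MG 1 and LL-MG 1 were the lowest libraries. The locus was lower in all LL-MG than in all LL-MDM libraries (-0.33 ± 0.19, adjusted p = 0.24). Without MG 2 and MG 3, with the spread of the other groups taken for the single MG library, Vegfa was called lower in MG (-0.75, adjusted p = 4.5e-05) and in LL-MG against LL-MDM (adjusted p = 0.01). It was also called in the latter comparison without MG 1 alone (adjusted p = 0.024).

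Of the transporters, Slc16a1, which carries lactate and pyruvate across the plasma membrane (chr3:104638664-104658462), was higher in the microglial lineage with and without lipid load. It held 31.5, 32.6 and 28.9 CPM in MDM and 55.8, 45.0 and 46.6 in MG. LL-MDM held 30.7, 47.9 and 40.4, and LL-MG 63.3, 56.8 and 61.9. The MG libraries were all above the MDM libraries and the LL-MG libraries all above the LL-MDM libraries, while LL-MDM 1 lay within the MDM range. The log2 differences were 0.63 ± 0.12 (adjusted p = 0.00014) for MG against MDM, 0.52 ± 0.13 (adjusted p = 0.0066) for LL-MG against LL-MDM and 0.44 ± 0.12 (adjusted p = 0.013) for LL-MDM against MDM. The last call was lost without LL-MDM 2 (adjusted p = 0.29).

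Slc2a1, the basal glucose transporter (chr4:119108745-119137330), was among the more accessible loci of the list and varied little. It held 185, 194 and 212 CPM in MDM and 205, 239 and 213 in MG. LL-MDM held 193, 212 and 206, and LL-MG 238, 248 and 233. All LL-MG libraries were above all LL-MDM libraries, with a difference of 0.23 ± 0.084 (adjusted p = 0.062) that missed the threshold. In a fit of only regions within 1 kb of a start, Slc2a1 was called higher in both lineage comparisons. The differences there were 0.34 (adjusted p = 0.0014) for MG against MDM and 0.40 (adjusted p = 0.0074) for LL-MG against LL-MDM. Slc16a3, the lactate exporter of glycolytic cells, ranged from 65.1 CPM in MDM 1 to 83.8 in LL-MG 3 and passed no test, and 22.4% of its counts lie in regions shared with a neighbouring gene.

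In the upper part of glycolysis, where glucose is phosphorylated and split, 7 of the 9 loci passed at least 1 test, in differing directions. Pfkfb3, whose product makes the sugar bisphosphate that speeds up phosphofructokinase (chr2:11471430-11554071), passed in all 4 comparisons. It held 265, 245 and 250.1 CPM in MDM and 361, 294 and 319.7 in MG. LL-MDM held 304, 301 and 309.9, and LL-MG 412, 404 and 369. Each MG library exceeded each MDM library, each lipid-laden library exceeded the non-laden libraries of its lineage, and the LL-MG libraries were the highest of all. The log2 differences were 0.35 ± 0.079 (adjusted p = 0.0011) for MG against MDM, 0.37 ± 0.083 (adjusted p = 0.0028) for LL-MG against LL-MDM, 0.27 ± 0.081 (adjusted p = 0.02) for LL-MDM against MDM and 0.28 ± 0.082 (adjusted p = 0.023) for LL-MG against MG. The last 2 were lost without MDM 2, LL-MDM 2 or LL-MDM 3 (adjusted p = 0.06 to 0.076) for LL-MDM, and without MG 2, MG 3, LL-MG 1 or LL-MG 2 (adjusted p = 0.078 to 0.15) for LL-MG. Without MG 2 and MG 3 the LL-MG difference was 0.11 (adjusted p = 0.84). Its paralogue Pfkfb4, with the same kind of double activity (chr9:108988272-109032236), moved the other way between the lineages. It held 199.8, 194 and 213 CPM in MDM and 173, 143 and 152 in MG. LL-MDM held 182, 205 and 209, and LL-MG 165, 181 and 187. All MG libraries were below all MDM libraries (-0.38 ± 0.082, adjusted p = 0.00079), a call that was lost with MG 1 as the only MG library (-0.19, adjusted p = 0.16). Regions shared with Ucn2 hold 35.4% of its counts.

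The hexokinases Hk1 and Hk2, which take the first step of glycolysis, followed different groups. Hk1, the housekeeping form (chr10:62268855-62379920), held 169, 171 and 185 CPM in MDM and 148, 171 and 168 in MG. LL-MDM held 202, 222 and 241, and LL-MG 166, 173 and 179.6. The 3 LL-MDM libraries were the highest of the 12, above all MDM (0.35 ± 0.08, adjusted p = 0.0029) and all LL-MG libraries (LL-MG against LL-MDM -0.37 ± 0.086, adjusted p = 0.0036). Hk2, the form induced by HIF and by inflammatory signals (chr6:82725025-82774454), held 179, 184 and 189 CPM in MDM and 222, 169 and 195 in MG. LL-MDM held 201, 214 and 216, and LL-MG 262, 249 and 235. The LL-MG libraries were the highest and did not overlap any other group. Only the difference from MG passed (0.36 ± 0.088, adjusted p = 0.012), and it was lost without MG 2 or LL-MG 1 (adjusted p = 0.063 to 0.08) and with MG 1 as the only MG library (0.15, adjusted p = 0.76). LL-MG against LL-MDM gave 0.23 ± 0.09 (adjusted p = 0.074) and LL-MDM against MDM 0.20 ± 0.086 (adjusted p = 0.093).

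Pfkp, the platelet-type subunit of phosphofructokinase (chr13:6579874-6649060), had the widest range of the 35. It held 92.3, 101 and 92.7 CPM in MDM and 35.3, 85.9 and 64.9 in MG. LL-MDM held 74.2, 75.5 and 93.5, and LL-MG 28.4, 28.9 and 36.7. LL-MG was below LL-MDM without overlap (-1.36 ± 0.29, adjusted p = 0.008), the sole difference of 2-fold or more between lineages among the members. MG spanned from the LL-MG level in MG 1 to near the MDM level in MG 2, and all MG libraries were below all MDM libraries without passing (-0.56 ± 0.22, adjusted p = 0.066). A fit of only regions within 1 kb of a start called Pfkp lower in MG than in MDM (-0.77, adjusted p = 4.6e-05). The difference between LL-MG and MG, -1.04 ± 0.29 (adjusted p = 0.034), overlapped, was lost without MG 2, MG 3, LL-MG 1, LL-MG 2 or LL-MG 3 (adjusted p = 0.067 to 0.1), and was -0.17 (adjusted p = 0.88) with MG 1 as the only MG library. Without MG 2 and MG 3, Pfkp was called lower in MG than in MDM, at -1.42 (adjusted p = 9.7e-13).

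Aldoa, the aldolase of most tissues (chr7:126795234-126800994), held 157, 158 and 186 CPM in MDM and 189, 217 and 213 in MG. LL-MDM held 168, 171 and 161, and LL-MG 187, 184 and 181. All MG libraries exceeded all MDM libraries (0.32 ± 0.079, adjusted p = 0.0027), and the call was lost with MG 1 as the only MG library (0.22, adjusted p = 0.1). Gpi1, the isomerase that follows hexokinase (chr7:34201327-34230336), held 91.7, 93.8 and 95.3 CPM in MDM and 102, 96.5 and 106 in MG. LL-MDM held 115, 108 and 115, and LL-MG 108, 109.8 and 99.7. LL-MDM was above MDM in every library (0.26 ± 0.075, adjusted p = 0.016), and the call was lost without MDM 1 or LL-MDM 3 (adjusted p = 0.067 to 0.07). Of its counts, 62.8% lie in regions shared with Garre1 or Pdcd2l. MG against MDM did not pass for Gpi1 with all regions (0.11 ± 0.073, adjusted p = 0.22). It was called higher in MG with unshared regions alone (0.44, adjusted p = 0.0017) and with the gene span alone (0.40, adjusted p = 0.0018). Pfkl and Aldoc passed no locus test, and all counts of both loci (100%) are shared with neighbours. The region at the start of Aldoc, the brain-type aldolase, did differ (chr11:78322923-78323329). It held 7.54, 10.6 and 12.4 CPM in MDM and 1.77, 6.72 and 3.73 in MG. LL-MDM held 11.0, 10.4 and 9.16, and LL-MG 3.03, 2.25 and 5.20. MG was below MDM (-1.15 ± 0.28, adjusted p = 0.0011, and -1.40 ± 0.28, adjusted p = 8.9e-05 with start-based factors), and LL-MG was below LL-MDM (-1.48 ± 0.37, adjusted p = 0.0041). With the gene span alone, the Aldoc locus was called at -1.32 (adjusted p = 0.00093) and -1.44 (adjusted p = 0.0092) in these comparisons. The other region of the locus lies outside the span. Pfkl held 1 region and 4.43 to 8.90 CPM, the thinnest locus of the list.

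In the lower part, from triose phosphate to lactate, 2 of 8 loci passed, both as higher in MG than in MDM. Pgk1, the first ATP-yielding enzyme (chrX:106187100-106203699), held 71.3, 69.2 and 75.9 CPM in MDM and 90.4, 86.9 and 91.4 in MG. LL-MDM held 76.7, 73.0 and 90.9, and LL-MG 106, 85.7 and 88.9. All MG libraries exceeded the MDM libraries (0.32 ± 0.089, adjusted p = 0.0072). Eno1, an enolase (chr4:150236708-150248879), held 103, 99.9 and 101 CPM in MDM and 112, 133 and 134 in MG. LL-MDM held 115, 114 and 110.5, and LL-MG 111, 129 and 113. Again every MG library was above every MDM library (0.33 ± 0.079, adjusted p = 0.0019). Eno1 was not called with MG 1 as the only MG library (0.17, adjusted p = 0.26). Pkm, the pyruvate kinase of most tissues, held 208, 199 and 217 CPM in MDM and 204, 204 and 217 in MG. LL-MDM held 235, 228 and 240.5, and LL-MG 211, 209.6 and 218. The LL-MDM libraries were the highest, above all MDM and all LL-MG libraries, but neither difference passed (0.17 ± 0.071, adjusted p = 0.078 and -0.14 ± 0.075, adjusted p = 0.22). Ldha, which turns pyruvate into lactate, held 72.2, 80.8 and 72.8 CPM in MDM and 66.0, 105 and 89.0 in MG. LL-MDM held 64.8, 75.6 and 69.7, and LL-MG 67.8, 71.0 and 78.8. MG 2 and MG 3 were the highest libraries and MG 1 was below all of MDM, and the difference from MDM was 0.23 ± 0.11 (adjusted p = 0.11). Fits on part of its regions called Ldha higher in MG than in MDM. The differences were 0.39 (adjusted p = 0.011) with the gene span alone and 0.42 (adjusted p = 0.0097) with unshared regions. With only regions within 1 kb of a start it was 0.33 (adjusted p = 0.012). Tpi1, Gapdh, Pgam1 and Pdk1 passed in no comparison. The counts of Tpi1 and Gapdh lie wholly in regions shared with other genes.

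Among the other HIF targets, 3 of 9 loci passed in 1 comparison each, and Bnip3 in the interaction. P4ha1, a collagen prolyl hydroxylase subunit (chr10:59323197-59373304), held 69.7, 73.9 and 79.8 CPM in MDM and 104, 94.5 and 87.2 in MG. LL-MDM held 92.1, 86.0 and 69.4, and LL-MG 104, 90.9 and 92.8. MG was above MDM in all libraries (0.35 ± 0.093, adjusted p = 0.0041). Mxi1, which opposes MYC (chr19:53310128-53373293), held 230.0, 219 and 229 CPM in MDM and 249, 231 and 229 in MG. LL-MDM held 273, 256 and 284, and LL-MG 269, 242 and 265. LL-MDM lay above MDM in all libraries (0.26 ± 0.074, adjusted p = 0.015), and this call was lost without MDM 2 or LL-MDM 3 (adjusted p = 0.059 to 0.078). Ndrg1, a stress-responsive gene (chr15:66929318-66969641), held 102, 109 and 119.8 CPM in MDM and 48.0, 99.3 and 79.9 in MG. LL-MDM held 82.7, 74.5 and 92.9, and LL-MG 53.2, 52.1 and 53.3. MDM was the highest group, LL-MG the lowest and tightest, and MG spread from below LL-MG to near MDM. Ndrg1 passed in MG against MDM (-0.48 ± 0.18, adjusted p = 0.045), a call lost without MDM 1, MDM 2, MDM 3 or MG 3 (adjusted p = 0.06 to 0.11), and with MG 1 as the only MG library it was -1.16 (adjusted p = 4.3e-11). LL-MG against LL-MDM gave -0.64 ± 0.22 (adjusted p = 0.063) and LL-MDM against MDM -0.41 ± 0.19 (adjusted p = 0.13). Bnip3l, Ddit4, Ankrd37, Kdm3a and Higd1a passed no locus test, and Ankrd37 shares all its counts with Ufsp2. Bnip3l, which like Bnip3 acts in mitochondrial removal, has 83.0% of its counts in regions shared with Ppp2r2a. From its unshared regions alone it was called higher in MG than in MDM, at 0.75 (adjusted p = 0.014), and in LL-MG than in LL-MDM, at 0.77 (adjusted p = 0.038).

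Bnip3, which targets mitochondria for removal (chr7:138890836-138909506), was the sole member that passed the interaction test with all libraries, 2.86% of the members. It held 66.8, 72.0 and 70.6 CPM in MDM and 77.0, 78.8 and 80.1 in MG. LL-MDM held 78.4, 74.5 and 90.3, and LL-MG 68.7, 66.7 and 68.7. LL-MDM was above MDM in all libraries (0.21 ± 0.084, adjusted p = 0.074), and LL-MG below MG in all libraries (-0.21 ± 0.092, adjusted p = 0.11), neither of which passed alone. The interaction, the difference of LL-MG minus MG less that of LL-MDM minus MDM, was -0.42 ± 0.12 (adjusted p = 0.04), against 8.83% of all genes that passed (5.87% higher, 2.95% lower). No member passed in the other direction (0 by edgeR, 0 at an unadjusted p under 0.05 and 0 by DESeq2). The Bnip3 call was lost without MDM 1, MDM 2, MDM 3, MG 3, LL-MDM 1, LL-MDM 3, LL-MG 1, LL-MG 2 or LL-MG 3 (adjusted p = 0.056 to 0.11), and DESeq2 did not give it (adjusted p = 0.065).

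Single regions within the loci showed larger differences than the locus sums, and 1 locus can hold regions that move in opposite directions. Of the 202 member regions tested, 96 passed for MG against MDM, 62 as higher and 34 as lower. That is 47.5% of the member regions, against 51.7% of all 77737 regions (26.8% higher, 24.9% lower). For LL-MG against LL-MDM 48 passed, 22 as higher and 26 as lower, against 21.5% of all regions (10.3% and 11.2%). For LL-MDM against MDM 53 passed, 39 as higher and 14 as lower, against 29.5% of all (15.4% and 14.1%). For LL-MG against MG 29 passed, 9 as higher and 20 as lower, against 12.2% of all (4.22% and 8.01%). In the interaction 18 regions passed, 7 as higher and 11 as lower, against 10.9% of all (4.56% and 6.34%). With factors from start regions, the splits were 39 higher and 53 lower for MG against MDM, 16 and 9 for LL-MG against MG and 12 and 6 in the interaction. With total counts the split of LL-MG against MG was 10 and 12, so these directions depend on the scaling. At least 1 called region was found in 33, 22, 22 and 16 of the 35 loci in the order of the first 4 comparisons. These are 94.3%, 62.9%, 62.9% and 45.7% of the members, against 71.4%, 38.5%, 51.1% and 33.9% of all loci. The members held a median of 5 tested regions and all loci 3, so the shares are not of like loci. Called regions in both directions were held by 14, 2, 7 and 3 member loci (40%, 5.71%, 20% and 8.57%), against 20%, 4.41%, 9.88% and 2.73% of all loci. Region CPM uses scaling factors of its own, which differ from those of the loci most in MG 2 (0.888 against 1.02), so a region's value there can exceed that of its locus.

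Of the 202 tested member regions, 66 lay within 1 kb of a start. Of the 45 called regions with a difference of at least 2-fold between MG and MDM, 4 lay within 1 kb of a start, and the counts were 6 of 27, 0 of 24 and 1 of 11 in the other comparisons. Called differences of that size thus took 6.06% of the member regions near a start and 30.1% of those farther away in MG against MDM, with 13.2% and 37.4% over all regions. The corresponding shares were 9.09% and 15.4% in LL-MG against LL-MDM (6.11% and 19% over all regions), 0% and 17.6% in LL-MDM against MDM (5.03% and 20.8%), and 1.52% and 7.35% in LL-MG against MG (2.29% and 7.41%). Start regions as a class moved between MG and MDM. Over all 14704 tested, the median log2 difference was 0.22, and 4723 were called higher against 1116 lower. Among the members, 26 regions within 1 kb of any start were called higher and 6 lower (median 0.26). Of the 60 regions at the members' own starts, 24 were called higher and 6 lower in MG than in MDM, and 11 and 11 with factors taken from start regions. In LL-MG against MG the split at these starts was 1 and 6, and 2 and 2 with those factors. In LL-MG against MG the median was -0.18 over all start regions as well as over the members' start regions. A called start in these comparisons therefore has to be read against the class.

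**Figure D3:**
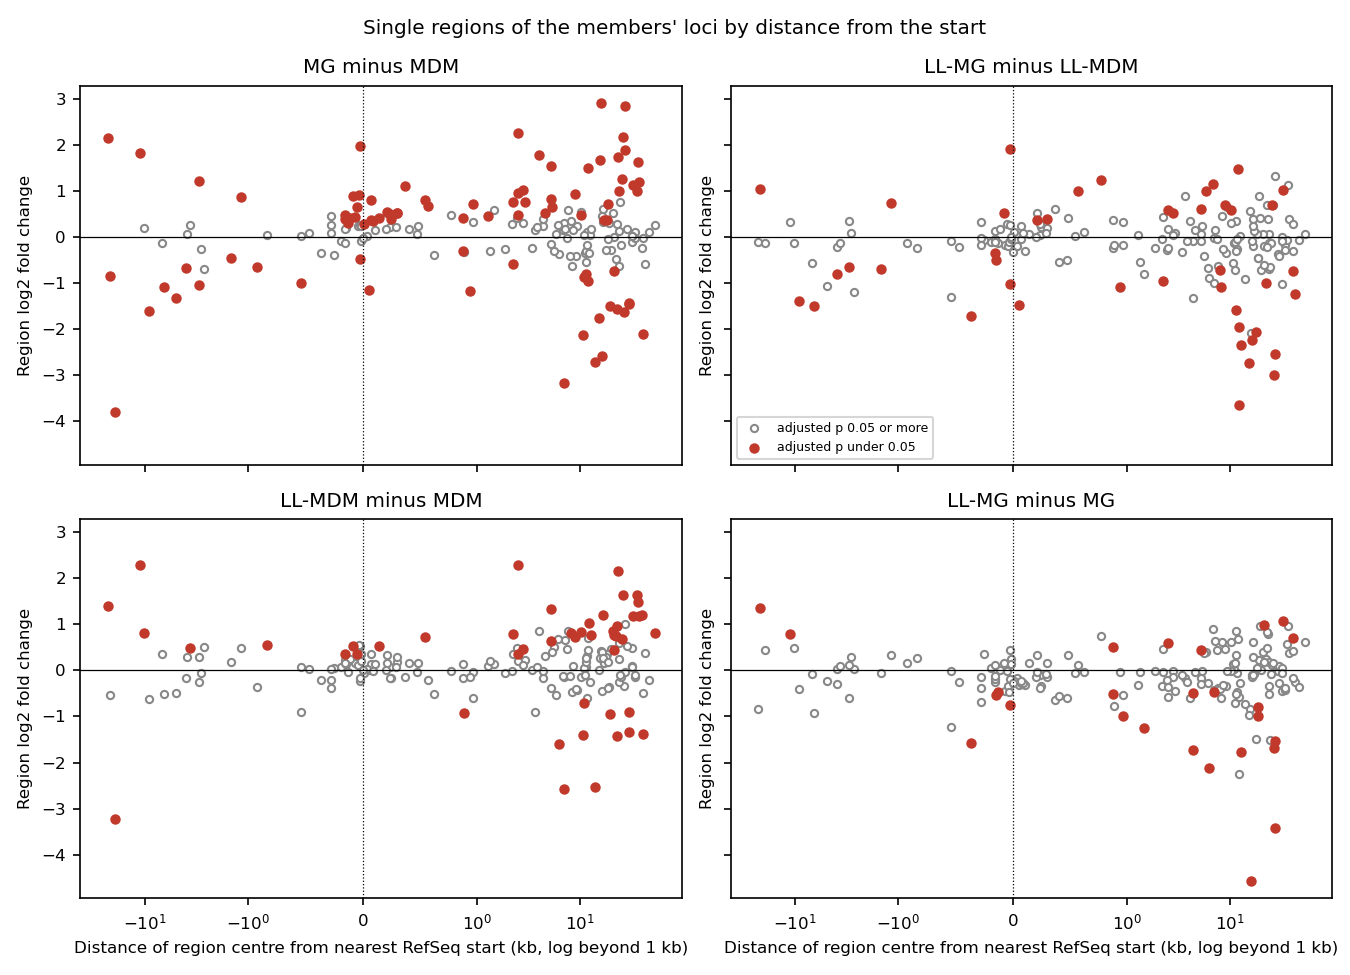
Each point is a tested region of a member locus, by the distance of its centre from the nearest RefSeq start in kb (logarithmic beyond 1 kb) and its log2 fold change in each of the 4 comparisons, red where the edgeR adjusted p is under 0.05. Of the called differences of 2-fold or more, 41 of 45, 21 of 27, 24 of 24 and 10 of 11 lie farther than 1 kb from a start, panel by panel.

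At the starts whose sequences are printed, those of Slc16a1 and Adm were among those higher in MG than in MDM under both scalings. The Slc16a1 region chr3:104638064-104639107, which contains the whole window with its 5 matches, held 23.0, 24.3 and 22.5 CPM in MDM and 48.2, 41.0 and 41.5 in MG. LL-MDM held 24.5, 38.1 and 32.7, and LL-MG 51.5, 45.8 and 47.5. The MG libraries were all above the MDM libraries (0.89 ± 0.13, adjusted p = 9.7e-07, and 0.66 ± 0.13, adjusted p = 9.7e-05 with start-based factors), and LL-MG was above LL-MDM (0.52 ± 0.15, adjusted p = 0.0096). The Adm region chr7:110627594-110627679 covers 86 bases of its window and held 0.838, 1.61 and 0.98 CPM in MDM and 3.19, 5.41 and 5.36 in MG. LL-MDM held 1.69, 2.13 and 0.981, and LL-MG 5.62, 7.64 and 6.59. It was low but higher in MG (1.98 ± 0.33, adjusted p = 4.9e-06, and 1.74 ± 0.33, adjusted p = 5.1e-05 with start-based factors) and in LL-MG (1.90 ± 0.40, adjusted p = 0.0007). The Pfkfb3 start chr2:11553569-11554149 held 35.9, 32.9 and 29.7 CPM in MDM and 52.4, 67.8 and 52.0 in MG. LL-MDM held 33.0, 43.8 and 45.8, and LL-MG 57.5, 47.6 and 43.7. It was higher in MG than in MDM by 0.81 ± 0.13 (adjusted p = 5.1e-06).

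The Pgk1 start chrX:106186748-106187357 held 46.5, 47.1 and 56.7 CPM in MDM and 74.0, 82.1 and 77.7 in MG. LL-MDM held 63.5, 54.8 and 73.6, and LL-MG 90.0, 70.1 and 71.1. MG exceeded MDM by 0.65 ± 0.12 (adjusted p = 4.5e-05), or 0.43 ± 0.10 (adjusted p = 0.00082) with start-based factors. The P4ha1 start chr10:59323051-59324149 held 59.3, 63.0 and 73.2 CPM in MDM and 95.0, 102 and 83.3 in MG. LL-MDM held 82.1, 75.6 and 64.8, and LL-MG 92.1, 80.0 and 81.5. The same difference was 0.53 ± 0.12 (adjusted p = 0.0003), and 0.31 ± 0.097 (adjusted p = 0.0086) with those factors. Both starts were higher in every MG than in every MDM library. The Aldoa start chr7:126798797-126800018 held 102, 100.5 and 126 CPM in MDM and 130.0, 167 and 155 in MG. LL-MDM held 121, 117 and 111, and LL-MG 136, 128 and 115. Its difference of 0.47 ± 0.11 (adjusted p = 0.00082) was 0.25 ± 0.085 (adjusted p = 0.014) with start-based factors. The Eno1 start chr4:150236792-150237296 held 51.3, 49.1 and 53.6 CPM in MDM and 62.0, 72.2 and 64.8 in MG. LL-MDM held 67.7, 59.5 and 56.3, and LL-MG 58.0, 63.8 and 53.1. The difference of 0.38 ± 0.11 (adjusted p = 0.0058) was no longer called with those factors (0.16 ± 0.096, adjusted p = 0.18). Pgk1, P4ha1 and Aldoa thus kept their call beyond the general shift of start regions, and Eno1 did not. The Gpi1 start chr7:34229885-34230498, with no match in its window, held 23.2, 24.7 and 27.9 CPM in MDM and 36.8, 32.8 and 31.5 in MG. LL-MDM held 30.5, 36.1 and 38.9, and LL-MG 39.8, 36.4 and 36.1. It was higher in LL-MDM than in MDM (0.52 ± 0.14, adjusted p = 0.0037). The Egln3 start chr12:54203255-54204004 covers 180 bases of its window and held 24.4, 22.3 and 22.5 CPM in MDM and 22.7, 38.0 and 27.8 in MG. LL-MDM held 27.9, 19.0 and 18.6, and LL-MG 22.5, 23.8 and 25.3. Its difference between MG and MDM, 0.38 ± 0.16 (adjusted p = 0.039), was lost without MDM 1, MDM 2, MDM 3, MG 2 or MG 3 (adjusted p = 0.052 to 0.51). It was -0.032 (adjusted p = 0.93) with MG 1 as the only MG library and 0.14 ± 0.15 (adjusted p = 0.43) with start-based factors.

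Away from the starts, the Mxi1 region chr19:53331990-53332398, centred 2499 bp from the nearest start, held 4.19, 4.36 and 6.21 CPM in MDM and 29.8, 18.2 and 21.7 in MG. LL-MDM held 21.2, 23.9 and 22.6, and LL-MG 32.0, 32.8 and 37.8. The 3 MDM libraries were far below the other 9, by 2.26 ± 0.19 (adjusted p = 1.8e-11) for MG and 2.28 ± 0.20 (adjusted p = 5e-10) for LL-MDM, although the Mxi1 locus as a whole did not differ between MG and MDM (adjusted p = 0.53). The lipid-load difference was smaller in the microglial lineage (interaction -1.68 ± 0.27, adjusted p = 0.00016). A Bnip3l region, chr14:66990706-66991006, held 3.35, 3.48 and 3.92 CPM in MDM and 18.4, 9.17 and 11.2 in MG. LL-MDM held 8.46, 8.78 and 14.7, and LL-MG 20.8, 23.8 and 17.3. This one was also higher in MG (1.80 ± 0.25, adjusted p = 2.6e-07).

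Pfkfb3 held called regions in both directions. The region chr2:11513125-11513367, centred -11156 bp from a start, held 1.95, 2.44 and 2.12 CPM in MDM and 11.0, 6.23 and 7.23 in MG. LL-MDM held 10.2, 11.6 and 10.1, and LL-MG 13.8, 16.2 and 11.1. MDM was below all other libraries (MG 1.82 ± 0.26, adjusted p = 4.3e-07, LL-MDM 2.29 ± 0.25, adjusted p = 4.3e-08). The region chr2:11521423-11521951, centred -19597 bp away, showed the reverse. It held 12.6, 8.20 and 8.66 CPM in MDM and 1.77, 0.655 and 0 in MG. LL-MDM held 1.69, 0.931 and 0.981, and LL-MG 0.432, 0.899 and 1.39. Every MDM library was above the other 9 (MG -3.80 ± 0.42, adjusted p = 4.6e-09, LL-MDM -3.23 ± 0.41, adjusted p = 4.6e-07). A further region, chr2:11496598-11497230, at 5176 bp, held 32.2, 32.8 and 34.6 CPM in MDM and 73.3, 46.9 and 57.6 in MG. LL-MDM held 49.1, 56.0 and 47.1, and LL-MG 77.8, 92.6 and 67.3. It was higher in LL-MG than in LL-MDM (0.62 ± 0.15, adjusted p = 0.0026). The region chr2:11523864-11524205, at -21944 bp, held 8.87, 6.54 and 8.66 CPM in MDM and 9.57, 2.13 and 3.50 in MG. LL-MDM held 5.92, 5.32 and 5.56, and LL-MG 9.51, 13.5 and 11.1. It was higher in LL-MG than in MG (1.35 ± 0.35, adjusted p = 0.016), with MG 2 and MG 3 low and MG 1 within the LL-MG range. This call was lost without MG 2, MG 3, LL-MG 2 or LL-MG 3 (adjusted p = 0.063 to 0.083), and without MG 2 and MG 3 together the difference was 0.24 (adjusted p = 0.91).

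Pfkfb4 held distal regions that were highest in MDM. Pfkp held distal regions that were higher in MDM and LL-MDM than in MG and LL-MG. The Ccr7, Flt3 and Kit loci were highest in MDM too, with lower means in LL-MDM. Other markers of the same lists differed from this. Mean Xcr1 was highest in LL-MG (59.8 CPM), and mean Zbtb46 was 280 CPM in MDM and 273 in LL-MG. Cd200r3, Cpa3, Gata2, Hdc and Ms4a2 had higher means in MG than in MDM. The part of cells that carry any of these markers in the Pfkfb4 and Pfkp regions was not tested. The Pfkfb4 region chr9:109021496-109022117, 29904 bp from a start, held 38.0, 33.4 and 40.7 CPM in MDM and 13.5, 14.7 and 12.8 in MG. LL-MDM held 18.6, 18.5 and 22.2, and LL-MG 9.95, 16.2 and 17.7. Every MDM library was above every library of the other groups (MG -1.43 ± 0.16, adjusted p = 7.5e-09). A smaller Pfkfb4 region, chr9:109005612-109005780, fell in LL-MDM (-2.54 ± 0.43, adjusted p = 3e-05). The Pfkp regions chr13:6632492-6632831 and chr13:6633483-6633857 followed lineage more than lipid load. The first held 16.8, 18.9 and 16.8 CPM in MDM and 1.42, 3.44 and 3.26 in MG. LL-MDM held 11.0, 12.8 and 13.7, and LL-MG 3.46, 2.70 and 2.08. Its MG libraries differed from MDM by -2.59 ± 0.24 (adjusted p = 1.3e-10). The second held 13.3, 16.1 and 13.4 CPM in MDM and 3.19, 4.10 and 5.13 in MG. LL-MDM held 15.2, 12.6 and 16.4, and LL-MG 0.432, 2.25 and 3.47. Here LL-MG differed from LL-MDM by -2.73 ± 0.35 (adjusted p = 7.4e-07). In both, the MG and LL-MG libraries were all below the MDM and LL-MDM libraries.

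The hexokinase loci held regions of more than 1 pattern. At Hk1, the region chr10:62299971-62300728, 40072 bp from a start, held 20.0, 20.0 and 22.1 CPM in MDM and 17.4, 16.2 and 18.9 in MG. LL-MDM held 33.0, 48.4 and 55.3, and LL-MG 21.6, 27.9 and 34.3. The mean was highest in LL-MDM (against MDM 1.20 ± 0.15, adjusted p = 4.9e-07). It was also called higher in LL-MG than in MG (0.69 ± 0.18, adjusted p = 0.014), a call lost without LL-MG 3 (adjusted p = 0.095). The region chr10:62313248-62313435, 27080 bp away, held 1.82, 1.04 and 2.45 CPM in MDM and 2.48, 8.85 and 5.13 in MG. LL-MDM held 3.39, 3.33 and 2.94, and LL-MG 0.865, 0.899 and 0. It was lower in LL-MG than in MG (-3.42 ± 0.65, adjusted p = 0.002), with an interaction of -4.42 ± 0.79 (adjusted p = 0.00066). It rests on MG 2 and MG 3, and without them it did not pass the filter on low counts. A further Hk1 region, chr10:62327595-62327791, held 4.75, 5.45 and 5.88 CPM in MDM and 1.42, 8.19 and 6.76 in MG. LL-MDM held 10.2, 8.91 and 8.50, and LL-MG 1.30, 1.35 and 2.43. This one was lower in LL-MG than in LL-MDM (-2.35 ± 0.44, adjusted p = 0.00023). At Hk2, the region chr6:82753041-82753581, 21143 bp from a start, held 28.4, 32.6 and 36.1 CPM in MDM and 25.5, 14.3 and 20.1 in MG. LL-MDM held 42.3, 45.5 and 41.2, and LL-MG 36.8, 35.5 and 40.6. The MG libraries were the lowest of the 12, and the region was higher in LL-MG than in MG (0.97 ± 0.17, adjusted p = 0.0011). With MG 1 as the only MG library this difference was 0.56 (adjusted p = 0.41), and that of the Hk1 region at 40072 bp 0.70 (adjusted p = 0.35). Another Hk2 region, chr6:82763929-82764511, was higher in LL-MG than in LL-MDM (0.59 ± 0.14, adjusted p = 0.0025).

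The Slc2a1 locus held a region, chr4:119127243-119127535, that was lower in LL-MG than in MG (-0.80 ± 0.19, adjusted p = 0.0068), a call lost without LL-MG 2 or LL-MG 3 (adjusted p = 0.059 to 0.061). Another Slc2a1 region, chr4:119131274-119131475, was highest in MDM. It held 6.84, 6.39 and 6.86 CPM in MDM and 1.77, 2.29 and 2.57 in MG. LL-MDM held 0.846, 2.93 and 2.29, and LL-MG 3.89, 3.59 and 4.51. The lipid-load differences of the latter had opposite signs in the lineages (interaction 2.25 ± 0.48, adjusted p = 0.0026). At Egln1 the region chr8:124922602-124922912 held 13.1, 9.92 and 9.97 CPM in MDM and 0.709, 4.26 and 4.66 in MG. LL-MDM held 5.08, 7.85 and 12.1, and LL-MG 0.865, 1.35 and 1.04. It was lower in LL-MG than in LL-MDM (-3.00 ± 0.49, adjusted p = 4.7e-05), although the locus sum passed no test. The Pgam1 region chr19:41918620-41918920, shared with a neighbouring gene, held 8.73, 7.63 and 8.50 CPM in MDM and 0.354, 0.983 and 1.17 in MG. LL-MDM held 1.69, 1.33 and 1.31, and LL-MG 0, 0.449 and 1.39. It was highest in every MDM library (LL-MDM against MDM -2.58 ± 0.35, adjusted p = 1.4e-06). The Bnip3 start chr7:138909267-138910038 held 55.6, 59.9 and 61.9 CPM in MDM and 54.9, 76.5 and 68.6 in MG. LL-MDM held 69.4, 58.0 and 70.7, and LL-MG 47.6, 48.5 and 43.0. It was lower in every LL-MG than in every MG library (-0.54 ± 0.14, adjusted p = 0.01), a call lost without MG 2, LL-MG 1 or LL-MG 3 (adjusted p = 0.057 to 0.099). With MG 1 as the only MG library the Bnip3 start gave -0.25 (adjusted p = 0.76) and the first Slc2a1 region -0.91 (adjusted p = 0.11).

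**Figure D4:**
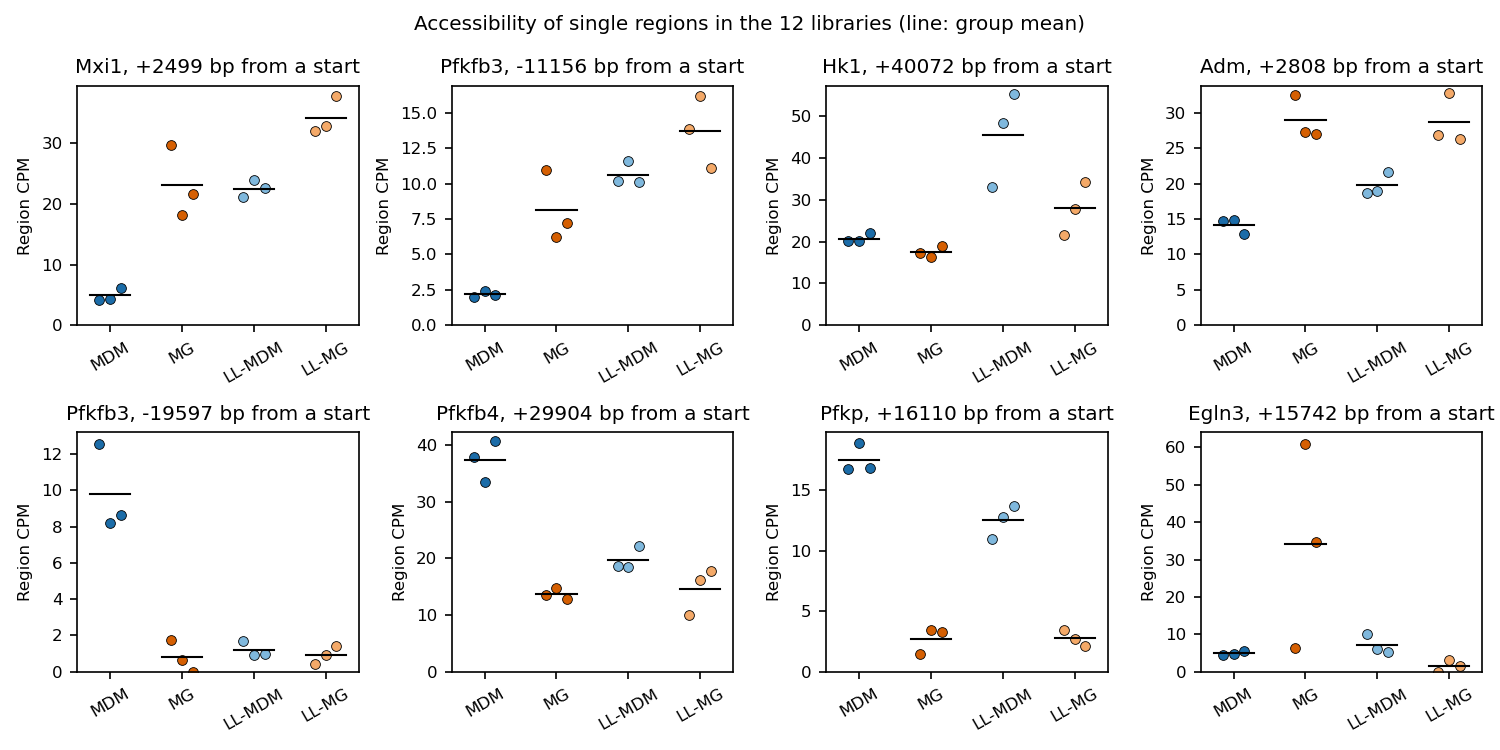
Each panel shows 1 region of a member locus, points being the 12 libraries in region CPM and lines the group means. Mxi1 at +2499 bp and Pfkfb3 at -11156 bp are lowest in the 3 MDM libraries, Pfkfb3 at -19597 bp, Pfkfb4 at +29904 bp and Pfkp at +16110 bp are highest there, and Egln3 at +15742 bp is high in MG 2 and MG 3 alone.

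The spread among the MG libraries was larger than that of the other groups at several members. The highest MG library was 1.19 times the lowest as a median over the members, and 1.25 times over all genes tested. Over all genes this median was 1.14 in MDM and 1.19 in LL-MDM and in LL-MG. A wider spread in MG is therefore not particular to the members. From MG 1 to MG 3, Egln3 held 48.7, 109 and 85.0 CPM, Pfkp 35.3, 85.9 and 64.9 and Ndrg1 48.0, 99.3 and 79.9. In the same order Ldha held 66.0, 105 and 89.0, Vegfa 45.2, 79.0 and 71.5 and Ddit4 79.1, 122 and 108. MG 2 was the highest each time. The Egln3 region chr12:54187843-54188421, chosen after its values were seen, held 4.33, 4.73 and 5.55 CPM in MDM and 6.38, 60.9 and 34.7 in MG. LL-MDM held 10.2, 5.99 and 5.23, and LL-MG 0, 3.15 and 1.39. Here MG 2 and MG 3 lay above every other library. Of the basophil and mast cell markers (a list also chosen after the values were seen), 7 of 8 had a region and 6 were tested, and Fcer1a had no region. Their summed level ran from 202 to 660 CPM in MG, against 280.5 to 310 in MDM, 189 to 213 in LL-MDM and 158 to 179 in LL-MG. Cpa3 held 2.83, 20.5 and 9.49 CPM in MG 1 to MG 3 and at most 3.41 in the other libraries, and Ms4a2 held 7.77, 40.3 and 21.0. Hdc held 48.0, 208 and 121 and Gata2 49.4, 122 and 87.2, while the microglial Sall1 ran the other way, at 74.2, 39.8 and 52.8. Outside that list, Ccr2 (10.2, 42.8 and 28.5) and Gzmb of the T and NK cell list (2.47, 25.8 and 15.5) were also highest in MG 2. Ms4a7 and Cd2 of the same lists as these were lowest in MG 2. The part of cells that carry any of these markers in the Egln3, Pfkp, Ndrg1, Ldha, Vegfa and Ddit4 values was not tested. With MG 2 and MG 3 left out, 6 members were higher and 3 lower in MG than in MDM, and 0 members and 0 regions were called between LL-MG and MG. Leaving out MG 1 instead raised the members called higher in MG than in MDM to 16, and those lower in LL-MG than in MG to 11. The first of these fits holds a single MG library, so its lost calls do not show which libraries carried them. Shares of all genes and regions called under these fits are not given here. The changes in the counts therefore cannot be read as particular to the members.

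**Figure D5:**
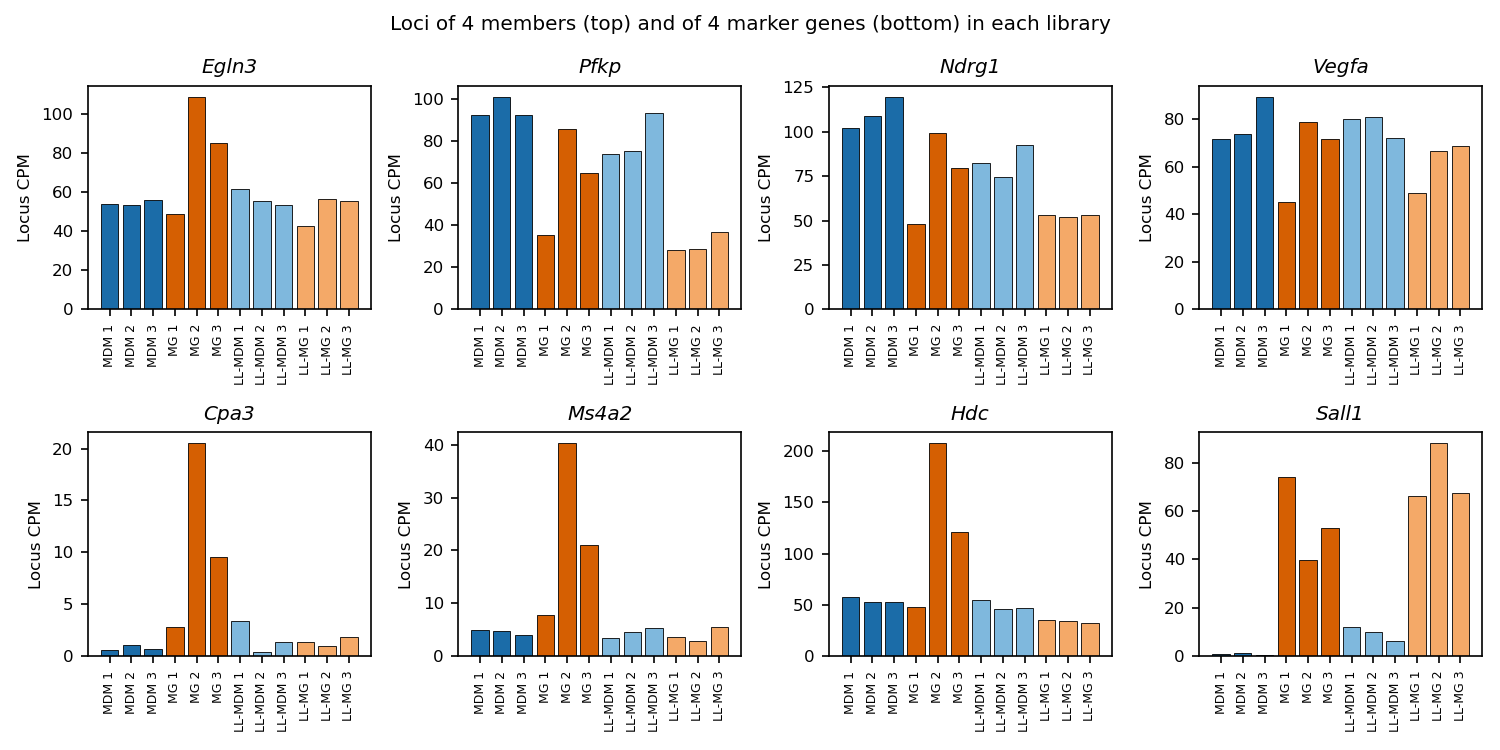
Bars give the locus CPM of 4 members (top) and 4 marker genes (bottom) in each of the 12 libraries, on axes from 0. Egln3, Cpa3, Ms4a2 and Hdc are highest in MG 2 and next in MG 3, while Sall1 is highest in MG 1 within that group.

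Of 60 further genes of the same pathways that are not in the list, 53 were tested. Between MG and MDM 17 were higher and 6 lower, and between LL-MG and LL-MDM 11 and 5. Between LL-MDM and MDM the counts were 13 and 4, between LL-MG and MG 8 and 8, and in the interaction 1 and 3. In that order the called shares were 43.4%, 30.2%, 32.1%, 30.2% and 7.55%, against 41%, 20.5%, 23.9%, 18.5% and 8.83% of all genes. In the first comparison, genes with the smallest p-values on the higher side included Hif3a, a HIF alpha subunit (1.00 ± 0.10, adjusted p = 1.3e-07), Angptl4 (0.62 ± 0.091) and Plod1 (0.50 ± 0.074). On the lower side the smallest were those of Bhlhe40, a transcriptional repressor (-0.79 ± 0.094, adjusted p = 7.3e-07), Pfkm, the muscle-type phosphofructokinase subunit (-0.40 ± 0.081), Hilpda, which restrains lipid droplet breakdown (-0.33 ± 0.075), and the carbonic anhydrase gene Car9 (-0.52 ± 0.13). Bhlhe40, Hilpda and Car9 are HIF targets that were lower in MG, as the members Ndrg1 and Pfkfb4 were. More genes went the other way. Of the 21 HIF targets tested in this further set, 8 were higher in MG and 4 lower. Among the members 8 were higher, Adm and Slc16a1 among them, and 2 lower.

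Between the lipid-laden lineages the same rule gave, among others, Hif3a (0.74 ± 0.12), the ARNT paralogue Arnt2 (1.14 ± 0.19, adjusted p = 0.00077) and Plod1 (0.43 ± 0.086) as higher in LL-MG. Lower in LL-MG were the chemokine receptor gene Cxcr4 (-1.32 ± 0.24, adjusted p = 0.0022), Car9 (-0.61 ± 0.16), Bhlhe40 (-0.38 ± 0.10) and Hilpda (-0.30 ± 0.085). In LL-MDM against MDM, Angptl4, an inhibitor of lipoprotein lipase (0.68 ± 0.095, adjusted p = 3.3e-05), Ldhb (1.35 ± 0.23), the lipid droplet coat gene Plin2 (0.59 ± 0.11) and the hexokinase gene Hk3 (0.49 ± 0.11) were higher. Fam162a (-0.45 ± 0.095), Bhlhe40 (-0.36 ± 0.095), Pfkm (-0.28 ± 0.085) and Slc2a6 (-0.46 ± 0.15) were lower. In LL-MG against MG, Arnt2 (0.98 ± 0.18, adjusted p = 0.0056), Angptl4 (0.43 ± 0.098), Plin2 (0.51 ± 0.12) and Hk3 (0.49 ± 0.12) were higher. In the same comparison Cxcr4 (-1.12 ± 0.23, adjusted p = 0.011), Ier3 (-0.61 ± 0.14), Pdp1 (-0.43 ± 0.11) and the glycogen phosphorylase gene Pygl (-0.81 ± 0.22) were lower. Of the genes named in this paragraph, Angptl4, Plin2 and Hk3 thus passed as higher in both lipid comparisons, which share no library. Ldhb did so too, at 0.77 (adjusted p = 0.021) in LL-MG against MG. Other pathway genes were not compared here in this way. Among the 35 members only Pfkfb3 did so, 2.86%, against 3.27% of all genes. With MG 1 as the only MG library, each difference named for LL-MG against MG in this paragraph was smaller and kept its sign. Arnt2 was then at 0.57, Angptl4 at 0.32, Plin2 at 0.23, Hk3 at 0.19 and Ldhb at 0.23. On the lower side Cxcr4 was at -0.54, Ier3 at -0.22, Pdp1 at -0.22 and Pygl at -0.30. That fit holds a single MG library, so it cannot decide whether these calls depend on MG 2 and MG 3.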

How the data were processed

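The 12 ATAC-seq libraries were analysed from the count values as deposited by the authors, whole-number counts in 117835 regions of mm10. The tools named per the submitters' processing notes are deepTools 3.5.1, Picard 2.12.0, SAMtools 1.10 and BWA 0.7.17-r1188. Per the labels' protocols, DNA was tagmented with Tn5 made in house, went through 2 rounds of PCR of 9 cycles and was selected for 150 to 700 bp. How peaks were called, duplicates handled or reads shifted is not given in the sources used here. A count can therefore include PCR copies of 1 fragment. Every column was tied to a sample by its description.

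A locus count is the sum over all regions touching a protein-coding gene span (RefSeq, GRCm38.p6) or 5000 bp on either side, so neighbouring genes can share counts. Loci and single regions were tested with edgeR 4.0.16 (filterByExpr, TMM, glmQLFit with robust, glmQLFTest) in R 4.3.3, in 1 model over the 4 groups. Benjamini-Hochberg adjustment ran over all loci or all regions tested, with a threshold of 0.05. Standard errors came from the fold change and its F value. DESeq2 1.42.0 and voom of limma 3.58.1 were alternatives, and the fits were tested on simulated data. CPM uses TMM-scaled totals. The members and lists were chosen with earlier results of these data known. Named were members past the test with libraries that do not overlap (up to 6 per direction and comparison) and 12 genes set by name whatever their values. Also named were up to 4 other pathway genes and up to 3 regions per direction and comparison by p, and the starts of printed promoters. A pathway gene that this rule names is not reported here.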

Additional observations from a re-analysis of the deposited data

Results flagged for a closer look

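Each result here is a lipid-load difference that differed between the lineages by the interaction term of edgeR's quasi-likelihood test (Benjamini-Hochberg adjusted p under 0.05 over all loci or all regions), the interaction being LL-MG minus MG less LL-MDM minus MDM. The Bnip3 locus, a gene of mitochondrial removal, had an interaction of -0.42 ± 0.12 (adjusted p = 0.04), as described above. The Mxi1 region centred 2499 bp from a start gave -1.68 ± 0.27 (adjusted p = 0.00016), with lipid-load differences of 2.28 ± 0.20 (adjusted p = 5e-10) in the monocyte lineage and 0.60 ± 0.18 (adjusted p = 0.028) in the microglial lineage. The Pfkfb3 region at -11156 bp gave -1.50 ± 0.36 (adjusted p = 0.0063), with 2.29 ± 0.25 (adjusted p = 4.3e-08) and 0.80 ± 0.25 (adjusted p = 0.034), and it was no longer called without LL-MDM 2 (adjusted p = 0.065). In both regions the MDM libraries were lower than all others. Without MG 2 and MG 3 the microglial differences were 0.21 (adjusted p = 0.86) for Mxi1 and 0.30 (adjusted p = 0.87) for Pfkfb3, the Mxi1 interaction was -2.10 (adjusted p = 1.1e-10), and that of Pfkfb3 was still called as negative (adjusted p = 0.00023).

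The Slc2a1 region at 22629 bp gave 2.25 ± 0.48 (adjusted p = 0.0026), from -1.42 ± 0.29 (adjusted p = 0.00037) in the monocyte and 0.83 ± 0.37 (adjusted p = 0.14) in the microglial lineage. The Pfkfb4 region at 29904 bp gave 1.01 ± 0.26 (adjusted p = 0.012), from -0.91 ± 0.16 (adjusted p = 6.7e-05) and 0.099 ± 0.20 (adjusted p = 0.8), and was not called without LL-MG 3 (adjusted p = 0.061). Both regions were highest in MDM, and without MG 2 and MG 3 their interactions were 2.57 (adjusted p = 0.0077) and 1.04 (adjusted p = 0.02). The Pfkfb3 region at -21944 bp gave 1.88 ± 0.48 (adjusted p = 0.013), was not called without LL-MDM 2 or LL-MG 2 (adjusted p = 0.055 to 0.077), and gave 0.76 (adjusted p = 0.29) without MG 2 and MG 3. The Hk1 region at 27080 bp gave -4.42 ± 0.79 (adjusted p = 0.00066); its CPM was 8.85 in MG 2 and 0 in LL-MG 3, so the value rests on few counts, and without MG 2 and MG 3 the region did not pass the filter on low counts.

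Among pathway genes outside the list of 35, the locus of Arnt2, a partner of the HIF alpha subunits, gave 1.36 ± 0.26 (adjusted p = 0.0056), Pygl -1.41 ± 0.29 (adjusted p = 0.0084), Ier3 -0.70 ± 0.20 (adjusted p = 0.048) and Slc16a7, a pyruvate and lactate transporter, -0.55 ± 0.17 (adjusted p = 0.047). Without MG 2 and MG 3 these were 0.95 (adjusted p = 0.004), -0.91 (adjusted p = 0.01), -0.32 (adjusted p = 0.16) and -0.65 (adjusted p = 0.021), so the Ier3 call was lost.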

How the results depend on the processing

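Counts are members called higher or lower, or regions called, against the values in the report. Shares of all genes or regions called under each setting are not given here, so a changed count need not be particular to the members. With groups from the titles, members called were 0 higher and 0 lower for the lineage comparisons and for LL-MG against MG, 1 higher for LL-MDM against MDM, and 0 for the interaction. In the report's order of comparisons, 0, 0, 31, 12 and 0 regions were called. Under those groups the log2 differences changed sign for Slc16a1 (-0.052), Aldoa (-0.079) and P4ha1 (-0.025) in MG against MDM. They did so for Epas1 (-0.16), Adm (-0.21), Hk1 (0.078), Pfkp (0.26) and Pfkfb3 (-0.015) in LL-MG against LL-MDM, and for Hk1 in LL-MDM against MDM (-0.24). The same held for regions of Hk2 at 10234 bp (-0.14) and 21143 bp (-0.36), and Pfkfb3 at 5176 bp (-0.22). It also held for Hk1 regions at 12728 bp (0.34), 40072 bp (-0.51 and -0.58) and 27080 bp (0.95, interaction 0.67). The cause was not tested.

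With total counts as library sizes, 17 members were higher and 1 lower in MG against MDM, and 4 lower in LL-MG against MG. Loess offsets gave 1 higher and 3 lower there, DESeq2 3 lower and limma-voom 0 lower. Regions of 1 gene only gave 1 lower in MG against MDM and 4 lower in LL-MG against LL-MDM. The gene span alone gave 1 lower in LL-MDM against MDM. Start regions only gave 4 lower in MG against MDM and 4 higher and 2 lower in LL-MG against MG, with Hk1 at -0.015 in LL-MDM against MDM. Thinning to the smallest total gave 1 higher and 2 lower in LL-MG against MG. The Bnip3 interaction was not called (0) with DESeq2, limma-voom, the gene span, start regions, thinning, or start-based factors.

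Alternatives added after seeing the data were start-based factors, which gave 5 lower in MG against MDM and 4 lower in LL-MG against LL-MDM, and leaving out MG 2 and MG 3. The latter gave 8 higher and 4 lower in LL-MG against LL-MDM, 2 lower in LL-MDM against MDM, and 0 higher, 0 lower and 0 regions in LL-MG against MG. It also gave 0 lower and 10 regions in the interaction, and Egln3 at -0.13 in MG against MDM.

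Leaving out each library in turn, the members called higher and lower ranged from 7 to 16 and 1 to 3 in MG against MDM, 3 to 6 and 2 to 4 in LL-MG against LL-MDM. They ranged from 2 to 9 and 0 to 1 in LL-MDM against MDM, 0 to 4 and 0 to 11 in LL-MG against MG, and 0 to 0 and 0 to 8 in the interaction. The regions called ranged from 77 to 119, 22 to 58, 25 to 72, 6 to 71 and 12 to 49 in the same order. The upper ends of 16, 11, 8 and 71 were reached without MG 1.

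No paired analysis was possible because the labels tie no library of a group to one of another group: the descriptions share no number, and the mice in the titles conflict with the groups. A block over consecutive column numbers was not run. The smallest library holds 1.17 counts at 1 CPM, which limits the precision of thin regions. Spread between 3 libraries, shared counts of neighbouring genes and the conflict of labels limit every statement above.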
